A study of Mus musculus with 6 samples.

Results

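The genes described here encode proteins of the secondary (specific) and tertiary (gelatinase) granules of neutrophils. They were the 10 rows whose deposited symbol was Camp, Ltf, Ngp, Lcn2, Mmp8, Chi3l3, Cd177, Mmp9, Mmp25 or Fcnb, out of 31626 genes in each table, and all 10 had a value in every library. Values were compared between 3 Dot1l-deleted and 3 control libraries. Both groups were C57Bl/6 mouse common myeloid progenitors, a bone marrow stage upstream of neutrophils, monocytes, red cells and platelets. The cells had been transformed with the retroviral construct MSCV-MN1-IRES-GFP, which carries the leukaemia oncogene MN1, and grew in M3234 methylcellulose with serum, IL3, IL6 and SCF. In the Dot1l-deleted group, labelled Dot1l -/-, cells with floxed Dot1l alleles had been transduced with Cre recombinase. In the control group, labelled Dot1l flox/flox, they had received a control in place of Cre. Both were sorted at day 7. No library had Cre with intact Dot1l, so an effect of Cre itself and of the deletion cannot be told apart. Whether replicates are separate cultures or animals is not in the labels, so p-values measure the spread between these libraries, which may be technical.

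Neutrophils make their granules in waves as they mature. Promyelocytes fill primary granules with myeloperoxidase and serine proteases, myelocytes and metamyelocytes then make secondary granules with lactoferrin, cathelicidin and lipocalin 2, and band cells make tertiary granules rich in gelatinase. Receptors stored in secretory vesicles follow last. A protein goes into the granule that forms while its gene is transcribed, so the transcripts of each wave mark a stage. The transcription factors C/EBP epsilon and GFI1 are needed for the secondary wave in mice, and DOT1L is a histone H3 methyltransferase whose mark lies on transcribed genes.

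Dot1l itself was at 8.24, 8.17 and 5.80 FPKM (fragments per kilobase, relative to the mapped total) in the Dot1l-deleted libraries, against 20.2, 22.6 and 19.6 FPKM in the controls. The third Dot1l-deleted library stood apart. Over the tested genes its median log2 deviation from the mean over libraries was -0.366, against 0.0499 to 0.103 elsewhere, and 10 rows made up 39.0% of its FPKM, against 6.59% to 10.8%. Across the 11924 tested genes the log2 fold change had a median of -0.16 with the values as deposited, and 0.00110 after median-of-ratios scaling. Fold changes after this scaling are called scaled. Of 7 progenitor markers 6 were tested. Flt3, Cd34 and Kit fell, with means of 4.01, 123 and 57.6 FPKM after deletion and 66.5, 750 and 117 FPKM in controls. Fcgr3 and Ly6a rose, with means of 267 and 8.98 FPKM after deletion and 92.5 and 4.999 FPKM in controls.

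All 7 secondary granule genes were higher after Dot1l deletion, as was the tertiary gene Fcnb. Camp, Ngp and Chi3l3 were 12.6-fold to 17.6-fold higher in mean FPKM, Lcn2 was 4.34-fold higher and Mmp8 2.17-fold. Of the tertiary genes, Fcnb was 40.6-fold higher, Mmp25 lay above the controls at 0.147 to 0.501 FPKM, and Mmp9 was listed at 0 in 5 of the 6 libraries. Genes were tested with limma on log2(FPKM + 1) where the mean over all libraries was at least 1 FPKM, and called at an adjusted p under 0.05 (Benjamini-Hochberg over all tested genes). Of the 10 genes, 8 passed that filter and were called higher, beside 7.43% of all tested genes called higher and 19.7% called in either direction. The same 8 were called with scaling, where 23% of tested genes were called higher, and without the third Dot1l-deleted library, where 17.1% were. In 9 of the 10, the untested Mmp25 among them, all Dot1l-deleted libraries lay above all controls. The same held for 10.7% of tested genes and for 12.2% of the 20568 genes above 0 in any library. None of the 10 had them all below, as in 34.1% of tested genes. Camp, Ngp, Lcn2, Mmp8 and Chi3l3 also had a control mean above 1 FPKM. Ltf, Cd177 and Fcnb passed only through the Dot1l-deleted libraries and had to differ in order to be tested, so their calls are given only as a description. Mmp9 and Mmp25 were below the filter. RNA came from bulk cultures, in which more cells of a type and more RNA per cell cannot be told apart.

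**Figure D1:**
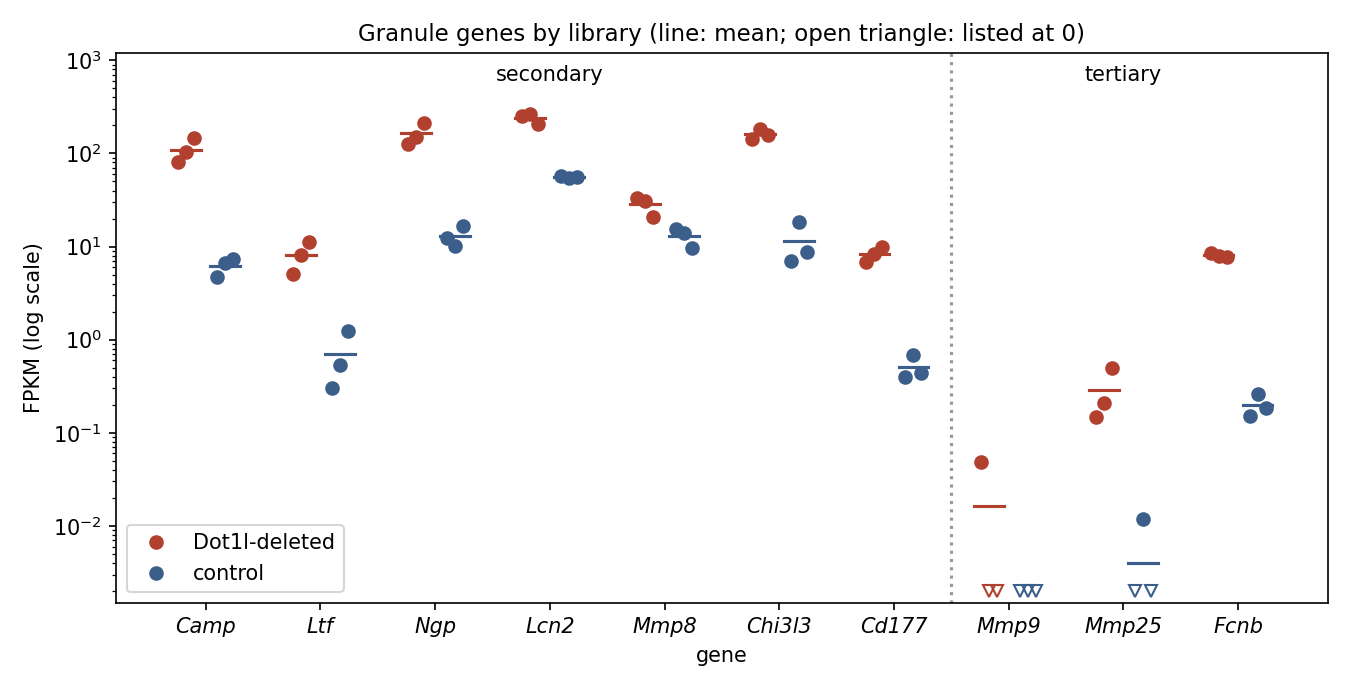
FPKM of each granule gene in the 3 Dot1l-deleted (red) and 3 control (blue) libraries on a log axis, with lines at the group means and open triangles for values listed at 0. The groups do not overlap for 9 of the 10 genes, and Mmp9 and Mmp25 lie below all the other genes within each group.

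Camp (ENSMUSG00000038357) encodes cathelicidin, the precursor of an antimicrobial peptide that is cut out by proteases after release. It stood at 80.3, 103 and 145 FPKM in the Dot1l-deleted libraries, against 4.66, 6.63 and 7.43 FPKM in the controls. The lowest Dot1l-deleted library was 10.8-fold above the highest control, and the third Dot1l-deleted library was the highest although most of its genes were low. By limma it rose by 3.91 on the log2 scale (SE 0.230, adjusted p = 1.53e-06), the fourth largest rise of the 11924 tested genes, and the scaled value was 4.08 (SE 0.353). On the scaled values the third library reached 192 FPKM, against 76.5 and 99.3 in the other Dot1l-deleted libraries.

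Ngp (ENSMUSG00000032484), neutrophilic granule protein, belongs to the cystatin-like cathelin family, as does the precursor part of cathelicidin. Its level was 127, 151 and 214 FPKM after deletion and 12.4, 10.2 and 16.5 FPKM in controls. As with Camp, the third Dot1l-deleted library was the highest and no library of one group reached the other. Its log2 fold change was 3.55 (SE 0.230, adjusted p = 2.94e-06), and 3.72 when scaled.

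Ltf (ENSMUSG00000032496) encodes lactoferrin, the iron-binding protein whose appearance marks the secondary granule stage. It was at 5.11, 8.13 and 11.1 FPKM in the Dot1l-deleted libraries, against 0.305, 0.536 and 1.24 FPKM in controls. The groups did not overlap, and the mean was 11.7-fold higher after deletion (log2 fold change 2.41, SE 0.272, adjusted p = 0.000121). Even so, Ltf remained low beside the other secondary genes apart from Cd177, whose range overlapped that of Ltf in both groups. Per 100 FPKM of Camp, the libraries held 6.36, 7.87 and 7.64 FPKM of Ltf after deletion and 6.54, 8.09 and 16.7 in controls, and the groups overlapped in that ratio. Both genes were higher after deletion, and the proportion between them did not separate the groups.

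Lcn2 (ENSMUSG00000026822) encodes lipocalin 2, which binds bacterial siderophores and so withholds iron. It had the highest mean level of the 10 genes in both groups, with 252, 267 and 209 FPKM after deletion and 56.9, 54.9 and 55.9 FPKM in controls. The groups did not overlap, and the mean was 243 ± 29.8 FPKM after deletion and 55.9 ± 1.02 FPKM in controls (SD, n = 3 each). By limma Lcn2 rose by 2.09 on the log2 scale (SE 0.164, adjusted p = 9.29e-06), or by 2.27 when scaled. Lcn2 made up 39.0%, 35.5% and 27.2% of the summed FPKM of the 7 secondary genes after deletion, against 58.5%, 52.1% and 55.9% in controls. Its share was thus smaller in every Dot1l-deleted library, where Camp, Ngp and Chi3l3 took more of the sum.

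Mmp8 (ENSMUSG00000005800), neutrophil collagenase, showed the smallest rise of the 8 tested granule genes. Its values were 33.1, 31.2 and 20.6 FPKM in Dot1l-deleted libraries and 15.5, 13.9 and 9.70 FPKM in controls. The groups did not overlap, but the lowest Dot1l-deleted library was only 1.33-fold above the highest control. In the limma fit the difference was 1.06 on the log2 scale (SE 0.217, adjusted p = 0.00613), and scaled it was 1.23 (SE 0.156, adjusted p = 0.00131). In controls Mmp8 was level with Ngp, with means of 13.04 ± 3.01 FPKM for Mmp8 and 13.04 ± 3.22 FPKM for Ngp (SD, n = 3 each). After deletion the means were 28.3 ± 6.73 FPKM for Mmp8 and 164 ± 45.1 FPKM for Ngp.

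Chi3l3 (ENSMUSG00000040809, now Chil3) encodes the chitinase-like protein Ym1, which neutrophil precursors make and alternatively activated macrophages make as well. Its FPKM was 142, 183 and 159 after deletion and 7.08, 18.5 and 8.78 in controls. The second control was the highest of the controls and still 7.70-fold below the lowest Dot1l-deleted library. Chi3l3 rose by 3.81 on the log2 scale (SE 0.287, limma adjusted p = 7.26e-06; scaled 3.98). Reads of its near-identical neighbour Chi3l4 can be split with it, and the Chi3l4 row held 0.137, 0.133 and 0 FPKM after deletion and 0.0246, 0.202 and 0.0940 FPKM in controls.

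Cd177 (ENSMUSG00000052212) encodes a GPI-anchored surface protein that is stored in secondary granules and holds proteinase 3 on the neutrophil membrane in humans. It was at 6.79, 8.31 and 9.95 FPKM in Dot1l-deleted libraries, against 0.398, 0.693 and 0.441 FPKM in controls, a 16.3-fold difference of means. With limma its log2 fold change was 2.62 (SE 0.178, adjusted p = 4.02e-06; scaled value 2.74). As with Camp, Ngp and Ltf, the highest value was that of the third Dot1l-deleted library.

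Fcnb (ENSMUSG00000026835) encodes ficolin B, a lectin that recognises sugars on microbes; its human counterpart ficolin-1 is stored in gelatinase and ficolin-1-rich granules. It was at 8.56, 7.90 and 7.77 FPKM after deletion and 0.150, 0.264 and 0.183 FPKM in controls. The Dot1l-deleted libraries lay close together, and the lowest was 29.5-fold above the highest control. Fcnb rose by 2.92 on the log2 scale in the limma fit, and by 3.02 when scaled (SE 0.155 and 0.121); the adjusted p was 7.94e-07. This scale understates the change of a gene so low in controls, and with a pseudocount of 0.1 in place of 1 the log2 fold change was 4.79.

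Mmp25 (ENSMUSG00000023903) encodes leukolysin, a membrane-anchored metalloproteinase that in human neutrophils is found in tertiary granules and other compartments. It was at 0.147, 0.207 and 0.501 FPKM in Dot1l-deleted libraries, against 0, 0.0119 and 0 FPKM in controls. The groups did not overlap, as for 12.2% of the 20568 genes above 0 in any library, and the two-sided exact permutation p was 0.1, a value that 3 against 3 libraries cannot go below. These FPKM values correspond to 13, 15 and 43 fragments after deletion and 0, 1 and 0 in controls, by the step that 1 fragment is worth. The summed 71 fragments against 1 give a ratio of 74.7 per unit of depth, with a 95% interval of 12.98 to 2990 (exact Clopper-Pearson, counting error only). With no filter on low values, limma gave a log2 fold change of 0.35 and an adjusted p of 0.0839. The processed pseudogenes AC154766.2 and AC154766.3 lie on the opposite strand within Mmp25 in GENCODE M21, and reads from either strand cannot be told apart unless the counting used strand.

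Mmp9 (ENSMUSG00000017737), gelatinase B, is the enzyme after which gelatinase granules are named. It was at 0.0486 FPKM in the first Dot1l-deleted library and listed at 0 in the other 5 libraries. The groups overlapped (exact two-sided permutation test, p = 1), and no difference was detectable at this depth. A value listed at 0 in such tables can be a failed estimate.

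**Figure D2:**
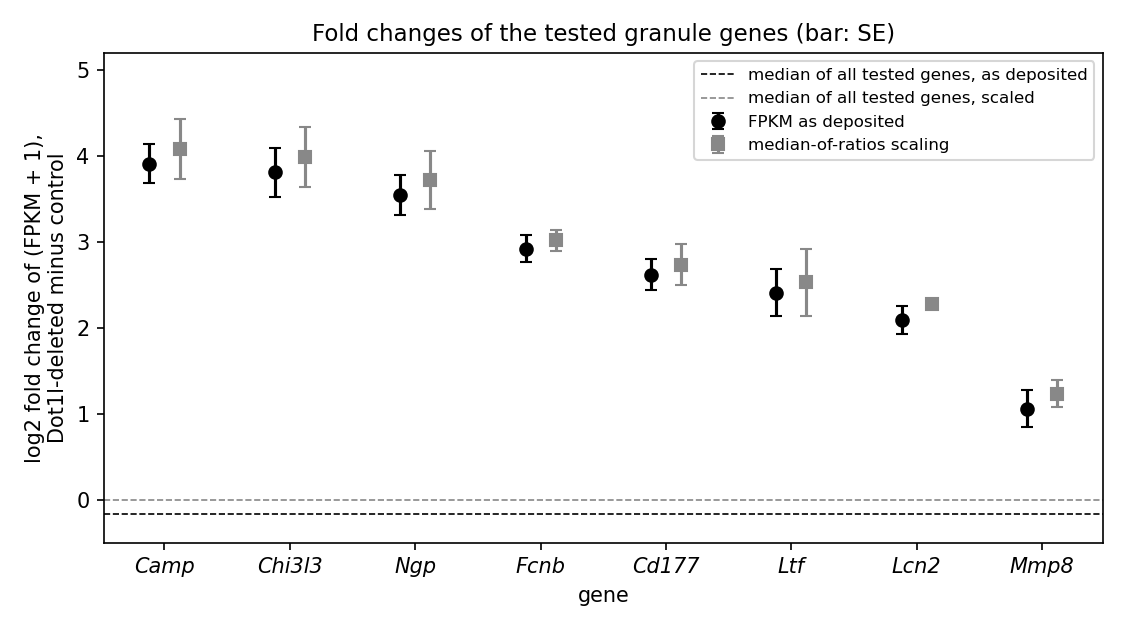
Log2 fold change of FPKM + 1, Dot1l-deleted minus control, for the 8 tested granule genes with its SE, on the values as deposited (black) and after median-of-ratios scaling (grey); dashed lines mark the medians of all tested genes. All 8 lie above both lines, between 1.06 for Mmp8 and 3.91 for Camp as deposited.

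The order of the mean levels differed between the groups. After deletion the mean FPKM was highest for Lcn2 (243), then Ngp (164), Chi3l3 (162) and Camp (110), and each of these overlapped its neighbour in range. A gap followed to Mmp8 (28.3), and another to Cd177 (8.35), Ltf (8.11) and Fcnb (8.08), whose ranges overlapped. In controls Lcn2 (55.9) stood clear of Ngp (13.04), Mmp8 (13.04), Chi3l3 (11.4) and Camp (6.24), which ran into one another. Ltf (0.695) and Cd177 (0.511) overlapped below them, followed by Fcnb (0.199). Mmp25 and Mmp9 were the lowest in both groups. Rises of at least 3 on the log2 scale were found for Camp, Chi3l3 and Ngp, and for 0.327% of all tested genes.

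The FPKM values could be traced to whole fragments for most of these genes, since low values in a library were multiples of what 1 fragment is worth. The numbers are the smallest whole ones in proportion to FPKM and relative depth. Ltf corresponded to 361, 473 and 764 fragments after deletion and 24, 36 and 77 in controls. Cd177 corresponded to 474, 478 and 676 fragments after deletion and 31, 46 and 27 in controls. For Ngp the numbers were 3216, 3149 and 5282 after deletion and 351, 245 and 367 in controls. Chi3l3, Lcn2 and Mmp8 rested on at least 281, 931 and 526 fragments in every library. The control values of Ltf and Cd177 thus have the largest relative counting error among the called genes for which fragments were found. Counting error is not the spread between libraries. In controls the levels were 11.4 ± 6.15 FPKM for Chi3l3 and 0.511 ± 0.159 FPKM for Cd177 (SD, n = 3 each). No whole step was found for Camp and Fcnb, and Mmp9 had a single value above 0.

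Summed levels place the genes beside the earlier wave, as values with no test that depend on the genes chosen. The 9 primary granule genes checked summed to 7717, 7815 and 5194 FPKM in the Dot1l-deleted libraries, against 2514, 2140 and 2214 FPKM in controls. The 7 secondary genes summed to 646, 752 and 770 FPKM after deletion, against 97.3, 105 and 100.02 FPKM in controls. The 3 tertiary genes, which Fcnb dominates, summed to 8.75, 8.11 and 8.27 FPKM after deletion, against 0.150, 0.276 and 0.183 FPKM in controls. The means were 3.02-fold higher for the primary sum, 7.17-fold for the secondary and 41.3-fold for the tertiary. The last is nearly the 40.6-fold of Fcnb alone, while Mmp9 was listed at 0 in most libraries. The tertiary values thus describe Fcnb and cannot stand for a whole wave or for its stage. Fcnb is counted as tertiary beside its human counterpart, and the stage at which the mouse gene is transcribed was not tested. Per 100 FPKM of primary genes, secondary genes held 8.37, 9.63 and 14.8 FPKM after deletion and 3.87, 4.92 and 4.52 FPKM in controls. Per 100 FPKM of secondary genes, tertiary genes held 1.35, 1.08 and 1.07 FPKM after deletion and 0.154, 0.262 and 0.183 FPKM in controls. The groups did not overlap in either ratio, which scaling of whole libraries cannot move. Primary transcripts remained the most abundant wave in every library, secondary transcripts came second, and tertiary transcripts were scarce. A different choice of genes gave other sums. The 16 other secondary and tertiary granule genes checked summed to 1043 to 1367 FPKM after deletion and 353 to 393 FPKM in controls. Among the primary genes, Prtn3 was 7.96-fold higher while 4 were not called.

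**Figure D3:**
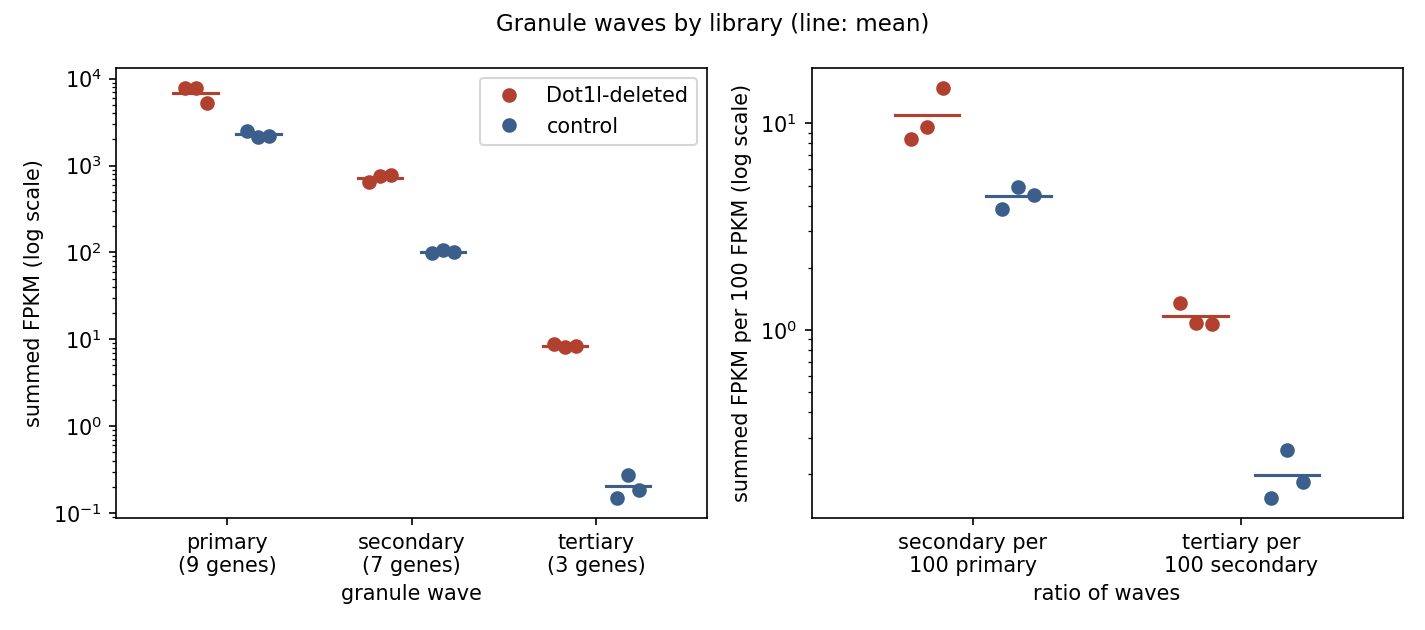
Summed FPKM of primary, secondary and tertiary granule genes in each library (left) and the ratios between waves (right), on log axes, with Dot1l-deleted libraries in red, controls in blue and lines at the means. The sums fall from wave to wave in both groups, and both ratios separate the groups, with all Dot1l-deleted libraries above the controls. Fcnb makes up most of the tertiary sum.

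Genes of the earlier and later stages help to place these values. Of 9 primary granule genes, 5 rose and 4 did not pass. Without the third Dot1l-deleted library 6 rose, and with scaling 7 rose and 1 fell. Over all tested genes 7.43% rose, 17.1% without that library and 23% with scaling, where 2661 of 11924 fell. Prtn3, encoding proteinase 3, was at 1181 ± 278 FPKM after deletion and 148 ± 20.3 FPKM in controls (SD, n = 3 each), and Mpo, encoding myeloperoxidase, at 2319 ± 490 FPKM after deletion and 572 ± 58.2 FPKM in controls. The neutrophil elastase gene, deposited as Ela2, rose 4.42-fold and Ms4a3 3.35-fold. The median log2 fold change of the 9 genes was 1.43, beside -0.16 for all tested genes.

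Other components of secondary and tertiary granules also rose. Of 16 checked, 12 were tested, 10 rose and 2 did not pass, and all 12 rose with scaling, and again without the third Dot1l-deleted library. Over all tested genes 7.43% rose, 23% with scaling and 17.1% without that library. Of the 12, Cybb and Lrg1 were tested only through their level after deletion; of the other 10, whose control mean reached the filter, 8 rose, with a median log2 fold change of 1.24. Itgam, the alpha chain of the Mac-1 integrin that these granules carry to the surface, was at 26.4 ± 2.04 FPKM after deletion and 4.13 ± 0.184 FPKM in controls (SD, n = 3 each). Lyz2, encoding the myeloid lysozyme, rose 7.16-fold, Pglyrp1, a peptidoglycan recognition protein gene, 5.38-fold and Lrg1 15.5-fold. Olfm4, a secondary granule gene below the filter and named after its values were seen, was at 0.871, 1.62 and 1.69 FPKM after deletion and 0.0711, 0.0833 and 0.456 FPKM in controls.

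Of 15 matched genes of mature neutrophils, mainly of the surface and secretory vesicles, 11 were tested and 11 rose. The count was the same under scaling and without the third Dot1l-deleted library. Over all tested genes 7.43% rose, 23% with scaling and 17.1% without that library. Fcgr3 is counted here and also among the progenitor markers above. Padi4 and Retnlg, also counted, do not encode surface receptors. C5ar1, Fcgr4, Padi4 and Retnlg were tested only through their level after deletion; the other 7, whose control mean reached the filter, had a median log2 fold change of 1.35. The Fc receptor gene Fcgr4 rose 10.01-fold and the lipopolysaccharide co-receptor gene Cd14 5.35-fold. The chemokine receptor gene Cxcr2, deposited as Il8rb, was at 8.18 ± 1.31 FPKM after deletion and 2.13 ± 0.524 FPKM in controls (SD, n = 3 each), and the leukotriene B4 receptor gene Ltb4r1 rose 2.68-fold. Of the 15, 4 stayed below the filter. The formyl peptide receptor gene Fpr1 was at 0.260, 0.237 and 0.2004 FPKM after deletion and 0.0875, 0.103 and 0.148 FPKM in controls. For Fpr2, another such gene, and for Alpl the groups overlapped. Ly6g, the gene of a neutrophil surface antigen, was at 2.11, 0.961 and 0.813 FPKM after deletion and listed at 0 in every control. These 4 were named after their values were seen.

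**Figure D4:**
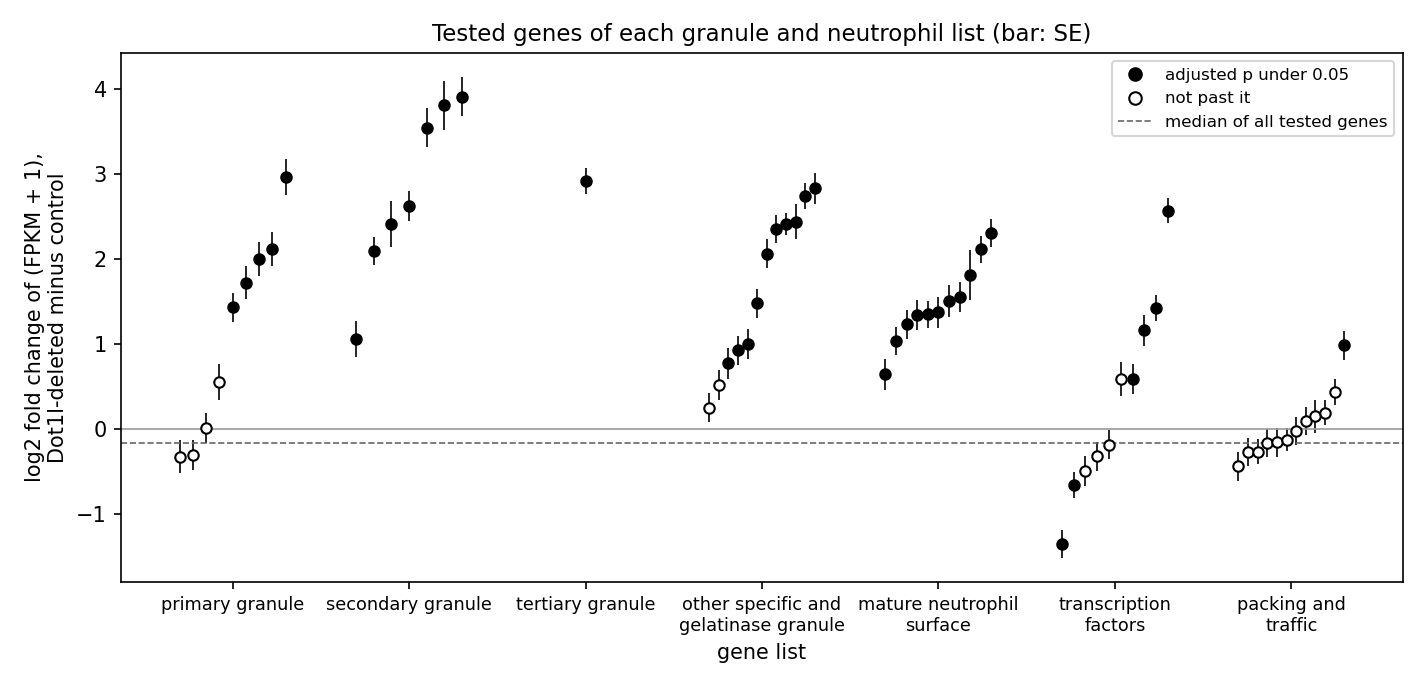
Log2 fold changes of the tested genes of each list with their SE, Dot1l-deleted minus control, with filled points at an adjusted p under 0.05 and a dashed line at the median of all tested genes. Secondary genes run from 1.06 to 3.91, the single tested tertiary gene is Fcnb at 2.92, and most packing and traffic genes lie near the line.

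Among 10 matched transcription factor genes of granule formation, 4 rose and 2 fell. With scaling 5 rose and 3 fell, and leaving out the third Dot1l-deleted library also gave 5 and 3. Of all tested genes, 7.43% rose and 12.2% fell, and with scaling 23% rose and 2661 of 11924 fell. The median log2 fold change of the 10 genes was 0.20. Cebpe, whose product drives the secondary granule genes, was at 53.4, 53.5 and 41.9 FPKM after deletion and 7.47, 6.93 and 8.03 FPKM in controls (log2 fold change 2.57, SE 0.150, adjusted p = 1.48e-06). Cebpb rose 2.91-fold and the PU.1 gene, deposited as Sfpi1, 2.29-fold. Cux1, encoding a homeodomain protein described as a repressor of the lactoferrin and gp91-phox genes, was at 35.4 ± 5.11 FPKM after deletion and 91.4 ± 3.44 FPKM in controls (SD, n = 3 each), a log2 fold change of -1.35. Of 12 genes for packing and moving granules, with a median log2 fold change of -0.07, Lyst, a regulator of lysosome-related organelles, rose by 0.99 on the log2 scale and 11 did not pass. The counts depended on scaling, with 6 higher and 1 lower after scaling, and on the third Dot1l-deleted library, with 4 higher and 1 lower without it. Nbeal2, a granule trafficking gene, and Vamp8, a membrane fusion gene, had log2 fold changes of 0.44 and -0.44 with adjusted p-values of 0.0787 and 0.106 by limma, and both passed with scaling. Vamp2, another membrane fusion gene, was at -0.27 and did not pass on either scale.

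Of 10 genes for inhibitors of granule proteases and receptors of granule proteins, 4 were tested and 2 rose, or 3 with scaling and 3 without the third Dot1l-deleted library. The shares of all tested genes that rose were 7.43%, 23% and 17.1% in the same order. Slpi, encoding an inhibitor of neutrophil elastase, was at 437 ± 108 FPKM after deletion and 102 ± 14.4 FPKM in controls (SD, n = 3 each), and the endocytic receptor gene Lrp1 rose 2.34-fold. Timp3, a metalloproteinase inhibitor gene, had a log2 fold change of 0.41 (limma adjusted p = 0.126) and passed with scaling. Serpinb1a, an inhibitor gene for neutrophil serine proteases, was at -0.34 (limma adjusted p = 0.211). Of 17 other metalloproteinase genes, 15 were below the filter. Mmp2, encoding gelatinase A, was at 54.5, 55.4 and 37.4 FPKM after deletion and 6.22, 7.96 and 5.99 FPKM in controls, far above the gelatinase B gene Mmp9 in every library, and Mmp19 rose 3.87-fold. None of the 4 related chitinase and chitinase-like genes reached the filter.

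Camp, Ngp and Ltf lie on chromosome 9 in that order in the GENCODE M21 annotation of GRCm38, with other genes between them. Of the 28 protein-coding genes between Camp and Ltf other than Ngp, 12 were tested. None was called by limma on the values as deposited, beside 19.7% of all tested genes. The log2 fold changes of the 12 ran from -0.46 to 0.44, and 4 had an unadjusted limma p under 0.05. With scaling 4 of the 12 were called higher and 2 lower, with log2 fold changes from -0.28 to 0.60. Of all 11924 tested genes, 23% were called higher and 2661 lower with scaling. The rises of Camp, Ngp and Ltf lay above those of all the 12 on both scales. Of the genes next to Camp, Nme6 had a log2 fold change of 0.47 (SE 0.183) and Cdc25a of 0.27 (SE 0.165), against 3.91 for Camp; both were called with scaling, at 0.65 and 0.45. Next to Ngp, Ptpn23 was at -0.35 (SE 0.145) and Klhl18 at -0.18 (SE 0.167).

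**Figure D5:**
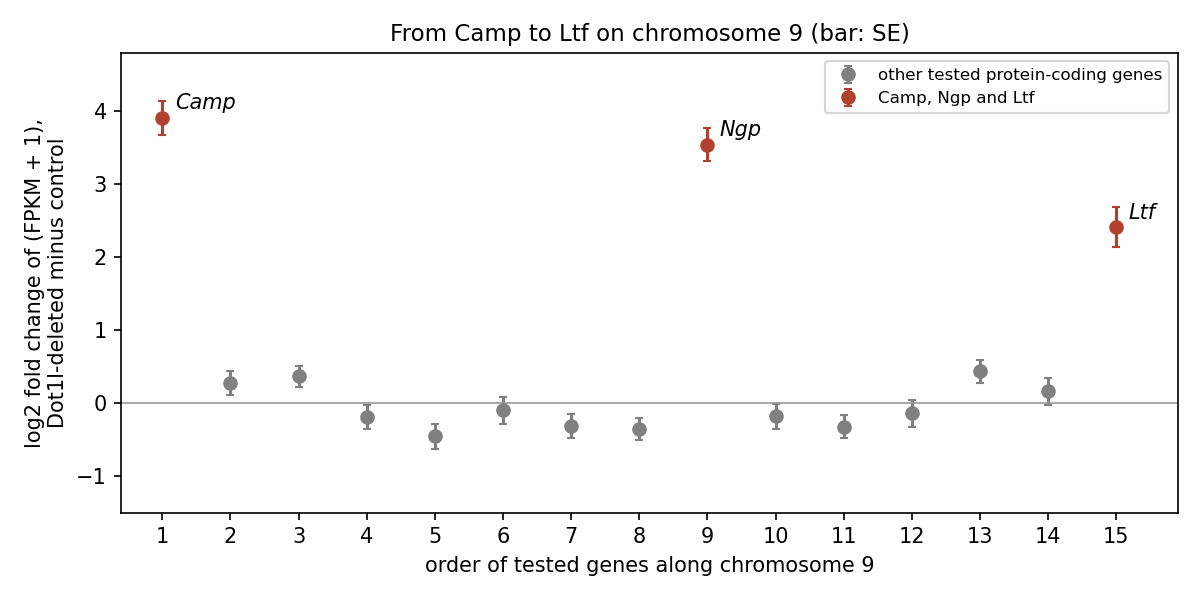
Log2 fold change with SE, Dot1l-deleted minus control, of the tested protein-coding genes from Camp to Ltf in their order along chromosome 9 (Camp, Ngp and Ltf red, the 12 others grey). The 3 granule genes lie at 3.91, 3.55 and 2.41 and the others between -0.46 and 0.44.

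The promoters of these 3 genes are shown because these genes were all higher after deletion. That of Fcnb is added as the gene of the largest fold among the tested granule genes. They are RefSeq sequences of build GRCm38.p6, each of 300 bases around the annotated start, whereas the FPKM tables were made on mm9. Of the 10 genes 9 matched the promoter table. Capitals mark TTNNGNAA, a core of C/EBP binding motifs, on either strand. The windows are chr9:109849407-109849706 (minus strand) for Camp, chr9:110419558-110419857 (plus strand) for Ngp, chr9:111019042-111019341 (plus strand) for Ltf and chr2:28084829-28085128 (minus strand) for Fcnb.
Camp: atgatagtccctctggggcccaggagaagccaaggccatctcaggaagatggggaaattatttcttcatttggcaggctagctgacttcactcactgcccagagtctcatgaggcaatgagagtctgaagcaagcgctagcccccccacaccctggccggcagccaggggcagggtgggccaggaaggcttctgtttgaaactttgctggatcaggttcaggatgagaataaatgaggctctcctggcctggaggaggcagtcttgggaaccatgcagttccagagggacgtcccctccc
Ngp: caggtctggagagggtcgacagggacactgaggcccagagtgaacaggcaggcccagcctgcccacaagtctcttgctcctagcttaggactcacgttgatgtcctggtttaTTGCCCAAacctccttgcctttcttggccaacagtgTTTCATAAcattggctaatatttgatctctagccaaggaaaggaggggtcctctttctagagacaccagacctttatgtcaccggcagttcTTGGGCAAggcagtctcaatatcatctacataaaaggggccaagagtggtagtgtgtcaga
Ltf: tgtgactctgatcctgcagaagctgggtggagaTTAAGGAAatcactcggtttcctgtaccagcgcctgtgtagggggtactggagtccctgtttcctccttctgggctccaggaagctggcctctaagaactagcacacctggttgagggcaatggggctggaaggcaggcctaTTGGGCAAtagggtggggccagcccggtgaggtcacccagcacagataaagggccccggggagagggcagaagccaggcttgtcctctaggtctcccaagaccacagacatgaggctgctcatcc
Fcnb: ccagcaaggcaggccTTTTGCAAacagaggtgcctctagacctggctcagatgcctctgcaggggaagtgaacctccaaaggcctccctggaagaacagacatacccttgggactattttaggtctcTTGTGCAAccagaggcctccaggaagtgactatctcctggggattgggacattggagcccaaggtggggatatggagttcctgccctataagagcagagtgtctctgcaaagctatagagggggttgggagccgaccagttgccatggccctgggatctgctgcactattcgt
The motif was found in 7 of the 9 promoters, those of Ltf, Ngp, Lcn2, Mmp8, Chi3l3, Cd177 and Fcnb, and in 40.7% of the 32851 mouse promoters of the same length. The Ngp window held 3 matches and the Ltf and Fcnb windows 2 each. Camp and Mmp25 had no match in these letters, which says nothing of the factor. One form of it, TTGGGCAA, singled out after the matches were seen, occurs in both the Ltf and the Ngp window, once on the plus strand in Ltf and on both strands in Ngp, and in 0.828% of all promoters. Of the 9 promoters, that of Mmp25 had the highest GC content, 63.3%, and that of Chi3l3 the lowest, 38.7%, against a median of 52.7% over all promoters.

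The genes outside the set whose pattern was most like it were found by Pearson correlation, over the 6 libraries, with the mean standardised profile of the 8 tested granule genes. With 2 separate groups of 3 libraries such an r mostly restates the group difference, and 105 other genes reached 0.99. Of those named, Nlrc4, Slc40a1, Nnmt and Clec4a2 were eligible only through their level after deletion. The closest were Nlrc4 (r = 0.999), an inflammasome receptor gene at 3.26 ± 0.218 FPKM after deletion and 0.754 ± 0.0233 FPKM in controls, and the iron exporter gene Slc40a1, at 7.93 ± 0.698 FPKM after deletion and 0.890 ± 0.131 FPKM in controls (SD, n = 3 each). Nnmt, the lectin gene Clec4a2 and Itgam also had an r of 0.999.

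Markers of other cell types that can hold some of these transcripts were checked beside them. Of 12 monocyte and macrophage markers 4 were tested, 2 rose and 1 fell (1 riser, Csf1r, was tested only through its level after deletion), and the summed level was 68.6 to 92.3 FPKM after deletion and 80.4 to 88.0 FPKM in controls. With scaling 3 rose and 1 fell, and again without the third Dot1l-deleted library. Csf1r, the defining receptor gene, was at 3.44, 2.57 and 1.83 FPKM after deletion and 0.548, 0.676 and 0.298 FPKM in controls. Mrc1, a macrophage marker below the filter, was at 2.06, 1.67 and 1.19 FPKM after deletion and 0.284, 0.349 and 0.185 FPKM in controls. Ccr2 was the marker that fell, with means of 26.3 FPKM after deletion and 47.4 FPKM in controls. Marco and C1qa were listed at 0 in every library. The 5 matched eosinophil markers summed to 16.8 to 18.6 FPKM after deletion and 2.71 to 3.94 FPKM in controls, with Siglec5 higher, Prg2 also higher but tested only through its level after deletion, and the peroxidase gene Epx at 0.579, 0.774 and 1.10 FPKM after deletion, against 0.104, 0.259 and 0.198 FPKM in controls. The 9 mast cell and basophil markers summed to 1586 to 2296 FPKM after deletion and 2540 to 2787 FPKM in controls, with 5 lower and none higher of 7 tested. With scaling 5 were lower and 1, Mcpt8, was higher, and without the third Dot1l-deleted library 5 were lower and 1 higher. Over all tested genes 7.43% were higher and 12.2% lower, and 23% were higher with scaling. Of 5 erythroid markers 1 rose and 3 fell, and of 4 megakaryocyte markers 2 rose and 1 fell; the erythroid riser Hba-a1 and the megakaryocyte riser Ppbp were tested only through their level after deletion. The 5 stromal and endothelial markers summed to 1.804 to 2.44 FPKM after deletion and 2.80 to 3.79 FPKM in controls, and the 1 tested did not pass. Most B cell, T cell and dendritic markers checked were listed at 0 throughout. The part of these other cell types in the levels of Chi3l3, Lcn2 and the other granule genes was not tested.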

How the data were processed

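RNA was prepared with a stranded mRNA kit, per the labels. The authors deposited 1 FPKM value per Ensembl gene and library. Cuffdiff, SAMtools, GSNAP, CASAVA 1.8.2 and build mm9 are named, without role or order, per the submitters' processing notes; the strand setting of the counting was not found in them. The 378 genes with a placeholder of 999999999 in any library were left out. The remaining genes with a mean of at least 1 FPKM were fitted with limma 3.58.1 in R 4.3.3 (mean-variance trend, two-sided, no scaling beyond that of the authors) on log2(FPKM + 1), which understates changes of low genes. The fit was tested on simulated data. Fold without "log2" is a ratio of mean FPKM.

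Low FPKM values differed between libraries by fixed steps, which put their depth at 0.739 to 1 times that of the first control; total depth stays unknown. A gene's fragments were the smallest whole numbers in proportion to FPKM times depth, within 0.05, with the lowest above 0 at most 1000. Among 1226 genes above 0 but under 0.3 FPKM in every library, 68.4% gave whole numbers within 0.02.

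Genes named from the lists other than cell type markers were up to 4 tested members with the smallest adjusted p; markers and chromosomal neighbours were named outside this rule, and the 6 most similar genes excluded predicted genes; 1 of these 6 is not reported here. The granule genes, lists and alternatives were chosen with earlier results of these data known, and the list medians and counts are descriptions. Only symbols matched to a row were counted. Alternatives covered the pseudocount, filter, scaling, variance model, replicate block, symbol summing and each library left out.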

Additional observations from a re-analysis of the deposited data

How the results depend on the processing

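Of the 10 granule genes, 8 were called in every alternative that tested them, all upward; with a filter of at least 5 FPKM, 5 were tested and 5 called, because Ltf, Cd177 and Fcnb fell below it. The highest adjusted p was 0.0422, for Mmp8 with no filter. Log2 fold changes ran from 3.32 to 4.11 for Camp, 0.87 to 1.29 for Mmp8 and, by pseudocount, 1.18 to 3.48 for Ltf and 1.33 to 4.79 for Fcnb. The log2 ratio of the summed secondary genes was 2.84, and 3.05 with median-of-ratios scaling.

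Over all genes, 2345 were called, 886 higher and 1459 lower. With scaling 5401 were called (2740 higher, 2661 lower), with quantile normalization 5608 (2412 higher, 3196 lower), and without the third Dot1l-deleted library but with scaling 4559 (2316 higher, 2243 lower). With no filter 1342 were higher. Leaving out 1 library gave 1819 to 4558 genes, 700 to 2041 higher and 1012 to 2517 lower; the highest counts were those without the third Dot1l-deleted library. The cause was not tested. Same-numbered libraries correlated at -0.0301, -0.0377 and 0.0128 in their deviations from the group means over the tested genes. No library correlated best with the library of its own number in the other group. With 3 libraries per group, these values cannot show whether replicate numbers pair the samples. A replicate block gave 1152 higher and 1801 lower and changed no call of a granule gene; with scaling it gave 4461 genes, 2302 of them higher. The 32 genes other than granule genes that the naming rule gave (chromosomal neighbours and markers were not among them) kept their direction in every refit; 521 refits also kept the call and 16 passed where the values as deposited did not, for Nbeal2, Timp3, Vamp8 and Serpinb1a. Values under 1 FPKM, such as those of Mmp9 and Mmp25, are limited by depth.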
